A study of Mus musculus with 6 samples.

Results

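The genes described here encode the light chains of myosin, the troponins, the tropomyosins, the skeletal and cardiac actins, the myosin binding proteins, the actinins and myozenins of the Z-disc, the myomesins of the M-band, and muscle LIM and ankyrin repeat proteins tied to fiber type. They were chosen by symbol from a list that leaves out the heavy chains, and all 40 were found among the 27179 genes in the count files. By their known expression, 13 were taken as slow isoforms or slow-fiber genes, 12 as fast, 10 as shared by both fiber types and 5 as developmental or cardiac.

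Skeletal muscle fibers come in slow, oxidative and fast, glycolytic types, and most proteins of the contractile machine are made from separate slow and fast genes. A fiber normally carries matching isoforms: a slow fiber pairs slow troponin with slow light chains and slow tropomyosin, and a fast fiber pairs their fast counterparts. The quadriceps of the mouse is a mainly fast muscle with a small slow portion, and fiber type can shift with nerve activity, load, disuse and mitochondrial state.

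RNA was sequenced from quadriceps muscle of 3 control mice, called B, C and D, and from 3 miDrp1KO mice, called A, E and F, on a normal chow diet. Control mice carry floxed *Dnm1l*, labelled f/f, and miDrp1KO mice carry floxed *Dnm1l* with HSA-MerCreMer, a Cre that tamoxifen activates under the human skeletal actin (*ACTA1*) promoter. *Dnm1l* encodes Drp1, the GTPase that divides mitochondria. The floxed line was backcrossed to C57BL/6J, tamoxifen was given to both genotypes at 3 months of age, and muscle was taken 3 weeks after deletion. The Cre is active in muscle fibers, so vessel, nerve, fat and connective tissue cells in the sample keep the gene. A portion of each frozen muscle was homogenized, and which portion is not given in the sources used here. Each library carries the name of its own mouse, so the spread within a group is that between animals of 1 experiment.

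Libraries held 13989588 to 62042255 counts, and levels are given as CPM, a gene's counts relative to its library's total after scaling by the trimmed mean of M-values (TMM). *Dnm1l* was at 156, 114 and 140.3 CPM in control B, C and D, against 70.6, 81.3 and 66.2 CPM in miDrp1KO A, E and F. The groups did not overlap, and the log2 fold change was -0.91 (SE 0.18), with an edgeR adjusted p of 0.362 over all genes and a two-sided exact permutation p of 0.1, the smallest that 3 against 3 allows. Ribosomal RNA took 1.48 to 24.4% of the counts and was not aligned with genotype: 15.6, 7.95 and 3.36% in B, C and D and 23.0, 1.48 and 24.4% in A, E and F. Markers of skeletal muscle were abundant in every library, with skeletal actin *Acta1* at 11087, 11619 and 11436 CPM per kb of exon in controls and 8607, 5368 and 9234 in miDrp1KO. The comparisons below ask whether the slow and the fast sarcomere program differ between the genotypes.

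Fast isoforms outweighed slow ones in each of the 6 libraries, as read from levels per exon length. Summed over the 12 fast genes, the level was 52254, 67321 and 60269.8 CPM per kb in control B, C and D, against 56749.9, 32194 and 44155 CPM per kb in miDrp1KO A, E and F. Summed over the 13 slow genes, it was 1159, 226 and 642 CPM per kb in controls and 333, 839 and 762 CPM per kb in miDrp1KO. The fast sum was lower in E and F than in any control, while A lay within the control range. The slow sums overlapped, from the lowest in control C to the highest in control B. *Mybpc1* alone made up 32.9 to 78.0% of the slow sum, and without it, an alternative chosen after seeing the data, the sums were 448, 103 and 141 CPM per kb in controls and 154, 461 and 511 CPM per kb in miDrp1KO. There E and F exceeded every control, control B came next, and A lay within the control range.

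**Figure D1:**
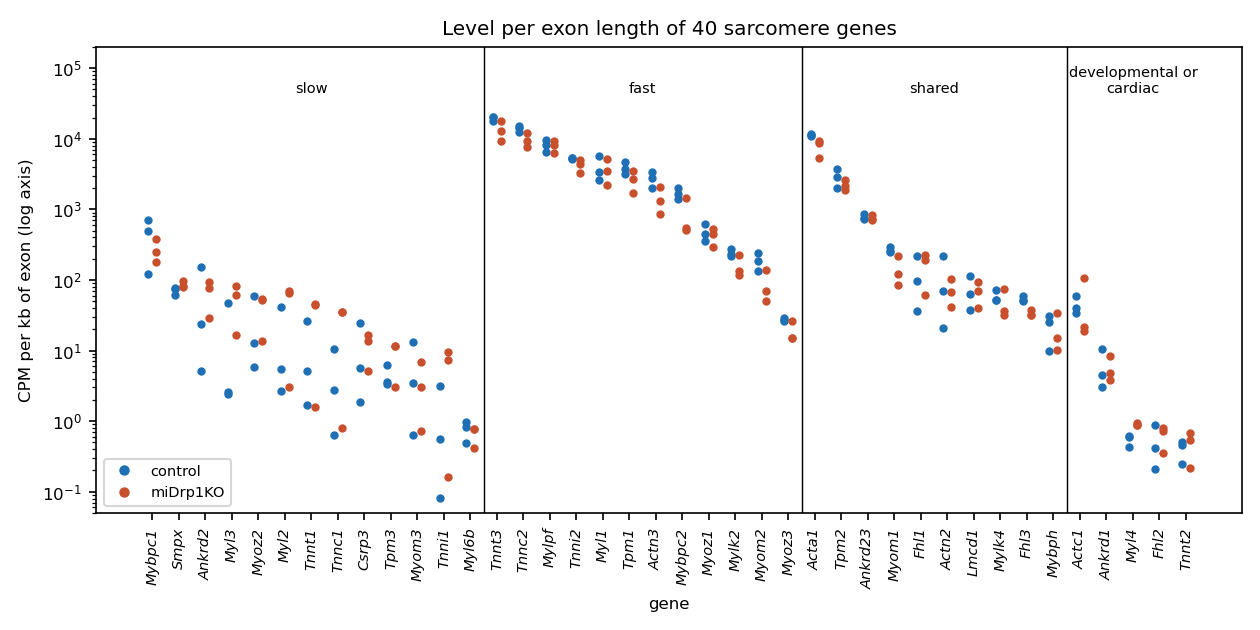
Level of each of the 40 genes in CPM per kb of exon on a log axis, 1 point per library, control in blue and miDrp1KO in orange, ordered by mean level within each class. Fast genes such as *Tnnt3* and *Tnnc2* sit above slow genes such as *Tnni1* and *Tnnc1*, and the slow points of both groups spread over a wide range.

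The 40 genes all passed the filter on low counts, and edgeR called none of them at an adjusted p under 0.05, where it called 0.0121% of the 16483 genes tested. At an edgeR unadjusted p under 0.05, 7 were lower in miDrp1KO (6.22% of all genes tested were) and 1 was higher (4.68% of all genes tested were). Lower values in every miDrp1KO library than in every control were found for 7 of the 40 (10.3% of all genes tested), and higher values in every miDrp1KO library for 2 (7.67% of all genes tested). DESeq2 gave 32 of the 40 an adjusted p and called 3 of them, all lower. Of all genes that DESeq2 gave an adjusted p, 2.14% were called lower, and limma voom called none of the 40. With all libraries, all 12 fast genes had a fold change below 0, with a median log2 fold change of -0.54. Without miDrp1KO E, 9 of the 12 were below 0 and the median was -0.36, 9 were below 0 without control C, and 11 were below 0 with upper quartile scaling, with at least 10 counts in every library or without ribosomal RNA genes and *Lars2*. Of the 13 slow genes 10 had a fold change above 0, with a median of 0.61, while over all genes tested the median was 0.017. Above 0 were 8 of 13 without control C or miDrp1KO F, 9 of 13 without D, and 8 of 11 with at least 10 counts in every library, where the median was 0.32. limma voom gave a slow median of 0.99. Of 10 shared genes 9 had fold changes below 0, with a median of -0.34 that ran from -0.48 without C to -0.21 without E, and 6 were below 0 without B. Of 5 developmental or cardiac genes 4 had fold changes above 0, with a median of 0.23 that ran from 0.053 without C to 0.58 without A. Because muscle tissue was sequenced, and not sorted fibers, fewer fibers of a type and less RNA per fiber cannot be told apart.

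**Figure D2:**
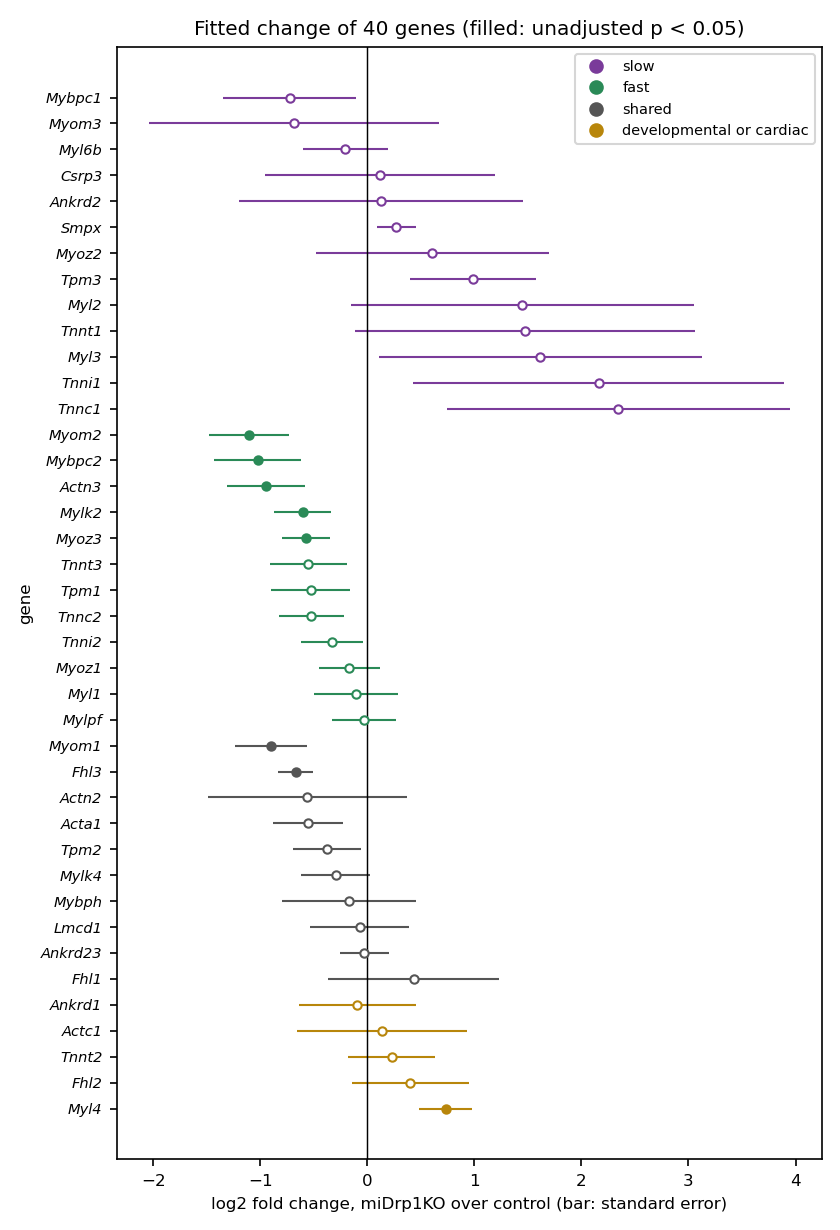
Fitted log2 fold change of each gene, miDrp1KO over control, with its standard error as a bar, colored by class, filled where the edgeR unadjusted p is under 0.05. Fast genes lie between -1.11 and -0.031 with short bars, and slow genes run from -0.72 to 2.35 with longer bars.

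Most slow genes varied widely between libraries, and the fold ranges given next span both genotypes. Within a genotype, *Tnnt1* ran from 3.79 to 58.0 CPM in controls and from 3.55 to 101 CPM in miDrp1KO. *Smpx* ran only from 141 to 177 CPM in controls and from 183 to 217 CPM in miDrp1KO. Across the 6 libraries, the highest CPM of a slow gene was a median of 20.9 times its lowest, against 2.30 times for fast genes, 2.65 times for shared genes, and 1.56 times over all tested genes with a mean of 10 CPM or more. A range over 10-fold was seen for 9 of the 13 slow genes, for none of the 12 fast ones, and for 0.722% of those genes with a mean of 10 CPM or more. Control C was the lowest library for 9 of the 13 slow genes and the highest for 10 of the 12 fast ones, whereas C was lowest for 19.0% and highest for 18.1% of all genes tested. In 9 of the 13 slow genes the 3 libraries with the highest level were control B and miDrp1KO E and F, an order found for 8.91% of all genes tested. miDrp1KO A was thus among the 3 lowest libraries for these 9 genes together with controls C and D, although for *Myl3* it stood well above C and D. The *Dnm1l* level of A was as low as that of E and F.

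**Figure D3:**
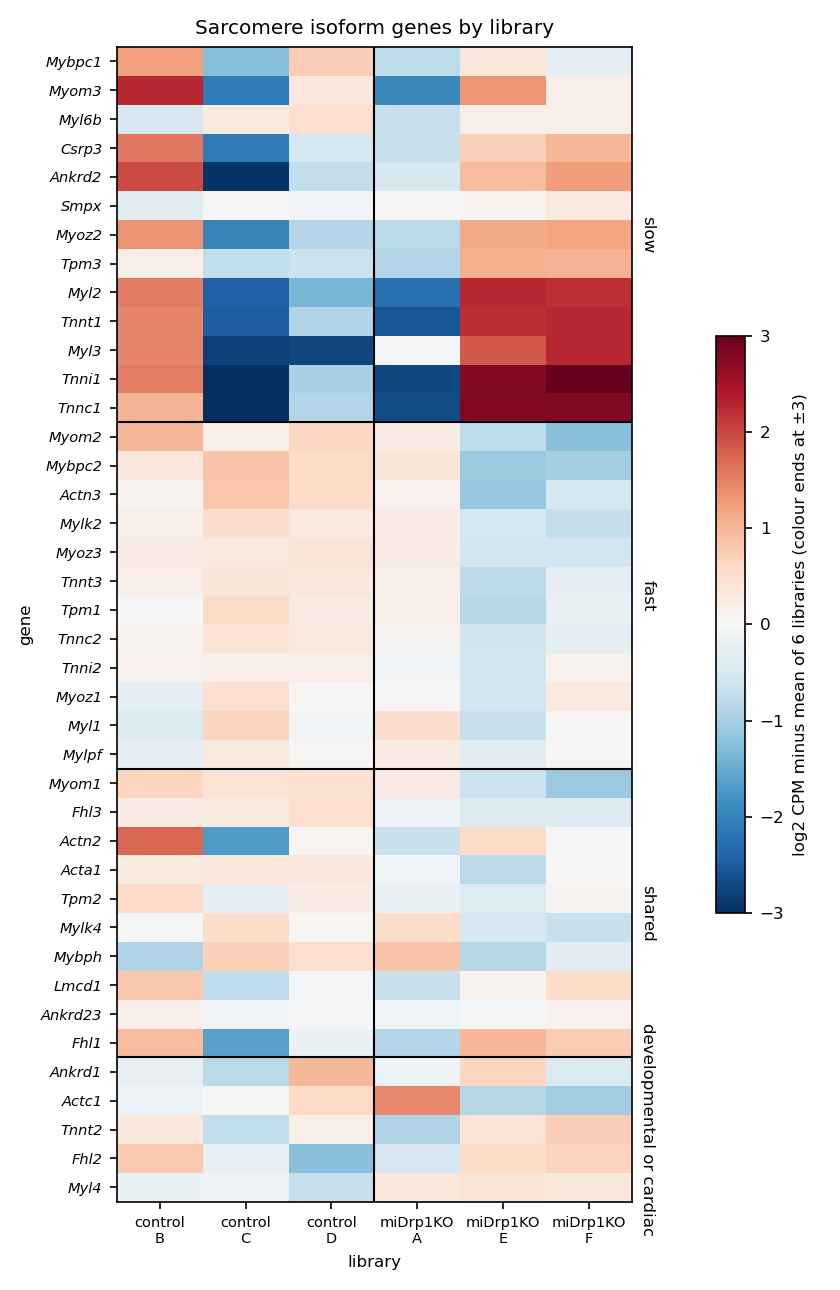
Log2 CPM of each gene minus its mean over the 6 libraries, 1 column per library and 1 line per gene, grouped by class, red above and blue below the mean. Most slow genes are red in control B and in miDrp1KO E and F and blue in control C, and the fast genes are blue in miDrp1KO E, with a median of 54.5% of the control mean there.

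Troponin, the calcium switch of the thin filament, is built of an inhibitory (I), a calcium-binding (C) and a tropomyosin-binding (T) subunit. Slow troponin I, *Tnni1* (chr1:135783033-135810989 in GRCm38), was at 11.4, 0.292 and 2.00 CPM in control B, C and D, against 0.583, 26.2 and 34.4 CPM in miDrp1KO A, E and F. Only 4 reads were counted on *Tnni1* in C and 12 in A, so its 118-fold range rests on very few reads at the low end. E and F exceeded every control, A lay between C and D, and the log2 fold change was 2.16 (SE 1.73, edgeR adjusted p = 0.705). Slow troponin C, *Tnnc1* (chr14:31208312-31211729), which the heart also uses, was at 10.8, 0.656 and 2.90 CPM in controls and 0.826, 36.5 and 36.3 CPM in miDrp1KO. C was again its lowest library and E and F its highest, with 9 reads in C and 17 in A, and its log2 fold change was 2.35 (SE 1.60, edgeR adjusted p = 0.656). Slow troponin T, *Tnnt1* (chr7:4504569-4515975), was at 58.0, 3.79 and 11.4 CPM in controls and 3.55, 98.6 and 101 CPM in miDrp1KO, and its standard error of 1.58 exceeded its log2 fold change of 1.47. With 1 library left out, the log2 fold change ran from 1.60 to 3.95 for *Tnni1*, from 1.85 to 3.65 for *Tnnc1* and from 0.95 to 3.14 for *Tnnt1*, highest without control B in each.

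The fast troponins had fold changes below 0, none with an edgeR unadjusted p under 0.05, while DESeq2 gave *Tnnt3* an unadjusted p of 0.0184 and *Tnnc2* one of 0.0139. Fast troponin T, *Tnnt3* (chr7:142498771-142516213), was at 28709, 32432 and 31946 CPM in controls and 28349, 14641 and 20504 CPM in miDrp1KO. Fast troponin C, *Tnnc2* (chr2:164777161-164779734), was at 9870.3, 12045 and 11273 CPM in controls and 9657, 6040.4 and 7399.5 CPM in miDrp1KO. Fast troponin I, *Tnni2* (chr7:142441816-142444410), was at 7811, 8125 and 8111 CPM in controls and 6686, 4854 and 7592 CPM in miDrp1KO. With TMM scaling every miDrp1KO library lay below every control in all 3 genes, but replicate A was only just below for *Tnnt3* and *Tnnc2*, and replicate F for *Tnni2*. The groups overlapped for *Tnni2* with upper quartile scaling, with at least 10 counts in every library and without ribosomal RNA genes and *Lars2*, and for *Tnnt3* without a filter. Their log2 fold changes were -0.55 (SE 0.36), -0.52 (SE 0.30) and -0.33 (SE 0.29), and their edgeR adjusted p values ran from 0.560 to 0.707. Cardiac troponin T, *Tnnt2*, present in immature muscle, stayed near the detection floor at 3.98, 1.89 and 3.55 CPM in controls and 1.70, 4.19 and 5.28 CPM in miDrp1KO, and the groups overlapped.

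By position, the troponin genes sit in pairs of one I and one T gene. *Tnni1* and *Tnnt2* lie on chromosome 1 with 25326 bases between them, and *Tnni2* and *Tnnt3* lie on chromosome 7 with 54361 bases between them. The fast pair shared its direction in the miDrp1KO libraries, whereas the slow *Tnni1* spread 118-fold over the libraries and its neighbor *Tnnt2* 3.10-fold.

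Bases before the RefSeq start site are printed for the slow genes *Tnni1*, *Tnnc1* and *Myl3*, with the fast genes *Tnnc2* and *Mylpf* beside them (RefSeq, GRCm38.p6, 5′ to 3′ on the gene's strand). Each stretch is the one of 120 bases closest to the start that holds no base of an annotated exon. Capitals mark matches on either strand to the E-box CAGCTG, which MyoD family factors bind. They also mark the MCAT element GGAATG, which TEAD factors bind. The CArG box, bound by serum response factor, is marked too. The stretches are chr1:135799282-135799401 (plus strand) for *Tnni1*, chr14:31208192-31208311 (plus strand) for *Tnnc1*, chr9:110763526-110763645 (plus strand) for *Myl3*, chr2:164779742-164779861 (minus strand) for *Tnnc2* and chr7:127211488-127211607 (plus strand) for *Mylpf*.
Tnni1: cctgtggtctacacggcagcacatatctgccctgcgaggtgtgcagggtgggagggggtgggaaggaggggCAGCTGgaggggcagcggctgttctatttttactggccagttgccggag
Tnnc1: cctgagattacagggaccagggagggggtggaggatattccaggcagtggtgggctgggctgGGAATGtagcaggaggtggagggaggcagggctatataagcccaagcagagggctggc
Myl3: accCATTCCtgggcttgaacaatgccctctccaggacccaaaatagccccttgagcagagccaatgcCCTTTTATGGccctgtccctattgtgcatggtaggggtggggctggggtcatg
Tnnc2: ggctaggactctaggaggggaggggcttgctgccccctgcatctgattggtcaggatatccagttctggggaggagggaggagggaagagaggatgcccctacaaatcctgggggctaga
Mylpf: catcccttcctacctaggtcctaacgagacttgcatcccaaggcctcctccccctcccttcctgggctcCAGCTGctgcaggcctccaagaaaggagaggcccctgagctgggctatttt

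The *Tnni1* stretch holds 1 CAGCTG, 68 to 63 bases before the first of its 2 RefSeq starts, and that of *Mylpf* holds 1 at 51 to 46 bases. *Tnnc1* has a GGAATG 58 to 53 bases before its start, and *Myl3* a CArG box at 85 to 76 bases and a GGAATG on the opposite strand at 149 to 144 bases. The *Tnnc2* stretch has no match to these motifs. Nor have the stretches of the slow genes *Tnnt1* and *Myl2*, which are not printed. The slow stretches printed are thus only those with a match. RefSeq promoters were found for 33 of the 40 genes, 13 slow, 5 fast, 10 shared and 5 developmental or cardiac. In the 250 bases before the start, on both strands, CAGCTG occurred in 13 of these 33 genes (13.0% of 32851 promoters), GGAATG in 10 (12.6%). The TATA box, searched as TATAAA, occurred in 8 (12.4%). The MEF2 motif occurred in 4 (2.92% of promoters): *Fhl2*, *Mylk4*, *Myom3* and *Myoz2*. The CArG box occurred in 7 (1.47% of promoters): *Acta1*, *Actc1*, *Fhl1*, *Fhl2*, *Lmcd1*, *Myl3* and *Myom1*. By class, CAGCTG was found in 5 of 13 slow and 2 of 5 fast genes, and GGAATG in 2 of 13 slow and 3 of 5 fast genes. A gene counted if any of its RefSeq starts had a match, while the percentages are over single promoters. Genes with several starts thus had more chances of a match, and the counts and percentages are not in like units. A match describes letters and is not a measured binding site.

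Light chains wrap the lever arm of the myosin head, the essential chains next to the motor and the regulatory chains next to the rod. The slow essential light chain *Myl3* (chr9:110763678-110769802) was at 95.9, 4.96 and 5.26 CPM in control B, C and D, against 34.1, 125 and 166 CPM in miDrp1KO A, E and F. Every miDrp1KO library stood above controls C and D, and B fell between A and the other two, with a log2 fold change of 1.62 (SE 1.51, edgeR adjusted p = 0.75). It ran from 1.09 without control C to 4.42 without control B, and limma voom gave 2.70 (unadjusted p = 0.0271, adjusted p = 0.358). The slow regulatory chain *Myl2* (chr5:122092724-122113473), also that of the cardiac ventricle, was at 81.6, 5.17 and 10.8 CPM in controls and 5.93, 134 and 126 CPM in miDrp1KO, with A beside control C. Its fast counterpart *Mylpf* (chr7:127208848-127214288) was at 6905, 10136 and 8597 CPM in controls and 9816, 6681 and 8595 CPM in miDrp1KO. The fast essential chain *Myl1* (chr1:66924295-66947932) was at 5495, 11855 and 7079.8 CPM in controls and 10702, 4650.4 and 7357 CPM in miDrp1KO. Both fast chains overlapped between groups: their log2 fold changes of -0.031 (SE 0.30) and -0.11 (SE 0.39) were close to 0, and that of *Mylpf* was above 0 under 3 other settings that keep all libraries and without control C or miDrp1KO E.

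Of the remaining light chain genes, *Myl4* was 1 of the 8 with an edgeR unadjusted p under 0.05. *Myl4* encodes the essential chain of the atria and of embryonic muscle, and was at 2.79, 2.84 and 2.00 CPM in controls and 4.08, 4.31 and 4.08 CPM in miDrp1KO. Every miDrp1KO library exceeded every control, at 39 to 176 counts a library, with a log2 fold change of 0.73 (SE 0.24, edgeR unadjusted p = 0.0122, adjusted p = 0.382). Its annotated span overlaps 5 other genes, *Cdc27* among them, and how reads on overlapping genes were counted is not given in the sources used here, so its counts are uncertain. *Myl6b*, an essential chain of slow and non-muscle cells, stayed between 0.778 and 1.78 CPM with no order by genotype.

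The kinases that phosphorylate the regulatory chain were less abundant in E and F. Skeletal myosin light chain kinase *Mylk2*, taken here with the fast genes, was at 637, 817 and 689.7 CPM in controls and 673, 393 and 343 CPM in miDrp1KO, so that A lay inside the control range and E and F below it. The log2 fold change was -0.61 (SE 0.27, edgeR unadjusted p = 0.0467, adjusted p = 0.451). The related kinase *Mylk4* was at 394, 561 and 402 CPM in controls and 576, 281 and 247 CPM in miDrp1KO, with A above and E and F below every control and a log2 fold change of -0.30 (SE 0.32), which was -0.75 without A and -0.06 without F.

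Tropomyosin covers the myosin binding sites on actin until calcium moves it. The slow isoform gene *Tpm3* was at 38.2, 20.1 and 21.7 CPM in control B, C and D, against 18.4, 70.2 and 69.5 CPM in miDrp1KO A, E and F. E and F were above every control and A below every one, for a log2 fold change of 0.99 (SE 0.59, edgeR adjusted p = 0.594). *Tpm3* also makes non-muscle tropomyosins and has processed copies in the genome, so its counts are not of the slow isoform alone. The fast gene *Tpm1* was at 20309, 30002 and 23933 CPM in controls and 22965, 11219.6 and 17249 CPM in miDrp1KO, where E was the lowest and A lay inside the control range. *Tpm2*, the beta chain found in both fiber types, ran from 5564 CPM in E to 10789.9 CPM in B, with overlapping groups and a log2 fold change of -0.38 (SE 0.32).

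Skeletal alpha-actin, *Acta1* (chr8:123891758-123894775), forms the thin filament of all adult fibers. It was at 17029.8, 17847 and 17565 CPM in controls and 13221, 8245 and 14183 CPM in miDrp1KO. All 3 miDrp1KO libraries lay below the controls, which differed little among themselves, and the log2 fold change was -0.56 (SE 0.33, edgeR adjusted p = 0.563). Cardiac actin *Actc1*, the embryonic isoform of skeletal muscle, stood out in replicate A at 171 CPM, against 55.4, 63.8 and 94.9 CPM in controls and 34.9 and 30.7 CPM in E and F. Its log2 fold change of 0.14 (SE 0.80) rested on that library and was -1.10 without it. *Acta1* and *Actc1* have near-identical coding sequences, so reads could be shared between them.

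Myosin binding protein C stiffens the thick filament and tunes the heads near actin. The slow isoform *Mybpc1* was at 3216, 558 and 2268 CPM in controls and 808, 1713 and 1137 CPM in miDrp1KO, with a log2 fold change of -0.72 (SE 0.62). It was -1.19 without control C and -0.19 without control B. Control B and D were its highest libraries. The fast isoform *Mybpc2* was at 5068, 7347 and 6002 CPM in controls and 5193, 1865 and 1993 CPM in miDrp1KO. E and F lay well below the lowest control, A just above it, and the log2 fold change was -1.03 (SE 0.40, edgeR unadjusted p = 0.0279, adjusted p = 0.415). *Mybph*, a shorter relative, ranged from 23.3 CPM in control B to 78.6 CPM in miDrp1KO A without an order by genotype.

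Myomesins hold thick filaments together at the M-band, and with all libraries all 3 had a fold change below 0. *Myom1* (chr17:71003332-71126856), present in all fibers, was at 3082, 2597 and 2667 CPM in controls and 2316, 1258 and 902 CPM in miDrp1KO. The groups did not overlap, and its log2 fold change was -0.90 (SE 0.33, edgeR unadjusted p = 0.0211, adjusted p = 0.393). *Myom2* (chr8:15057653-15133420), of fast fibers and heart, was at 2118, 1205 and 1631 CPM in controls and 1234, 623 and 446 CPM in miDrp1KO. Its log2 fold change was -1.11 (SE 0.38, edgeR adjusted p = 0.392), and DESeq2 called it at -1.12 with an adjusted p of 0.0332. A lay just inside the control range of *Myom2*, next to control C, and E and F below it. *Myom3*, of slow and intermediate fibers, was at 79.0, 3.79 and 20.9 CPM in controls and 4.33, 41.6 and 18.3 CPM in miDrp1KO, a 20.9-fold range set by control B at the top and control C at the bottom. The log2 fold change of *Myom3* was -0.68 (SE 1.36) and turned to 0.78 without control B.

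In the Z-disc, alpha-actinins cross-link thin filaments from neighboring sarcomeres. *Actn3* (chr19:4861216-4877909), the actinin of fast fibers alone, was at 5896, 9768 and 8186 CPM in controls and 6036, 2499 and 3808 CPM in miDrp1KO. A lay within the control range, just above B, and E and F below it. The log2 fold change was -0.95 (SE 0.37, edgeR unadjusted p = 0.0243, adjusted p = 0.407), and DESeq2 called it at -0.97 with an adjusted p of 0.0449. *Actn2*, the actinin of every fiber and the partner of *Actn3* in the ratios below, was at 839, 78.1 and 265 CPM in controls and 159.7, 388 and 253 CPM in miDrp1KO, all within the range from control C to control B.

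Myozenins bind calcineurin and actinin at the Z-disc. The slow *Myoz2* was at 205, 20.1 and 44.3 CPM in controls and 46.3, 179 and 185 CPM in miDrp1KO, all within the control range. The fast *Myoz1* was at 684, 1174 and 850.4 CPM in controls and 846, 552 and 1013 CPM in miDrp1KO and overlapped too, with E below and A and F within the control range. *Myoz3* (chr18:60573717-60591716), also of fast fibers, was at 90.6, 94.2 and 99.5 CPM in controls and 89.1, 51.5 and 51.2 CPM in miDrp1KO. All 3 miDrp1KO libraries were below the controls, A only slightly, and the log2 fold change was -0.57 (SE 0.22, edgeR unadjusted p = 0.0266, adjusted p = 0.41).

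**Figure D4:**
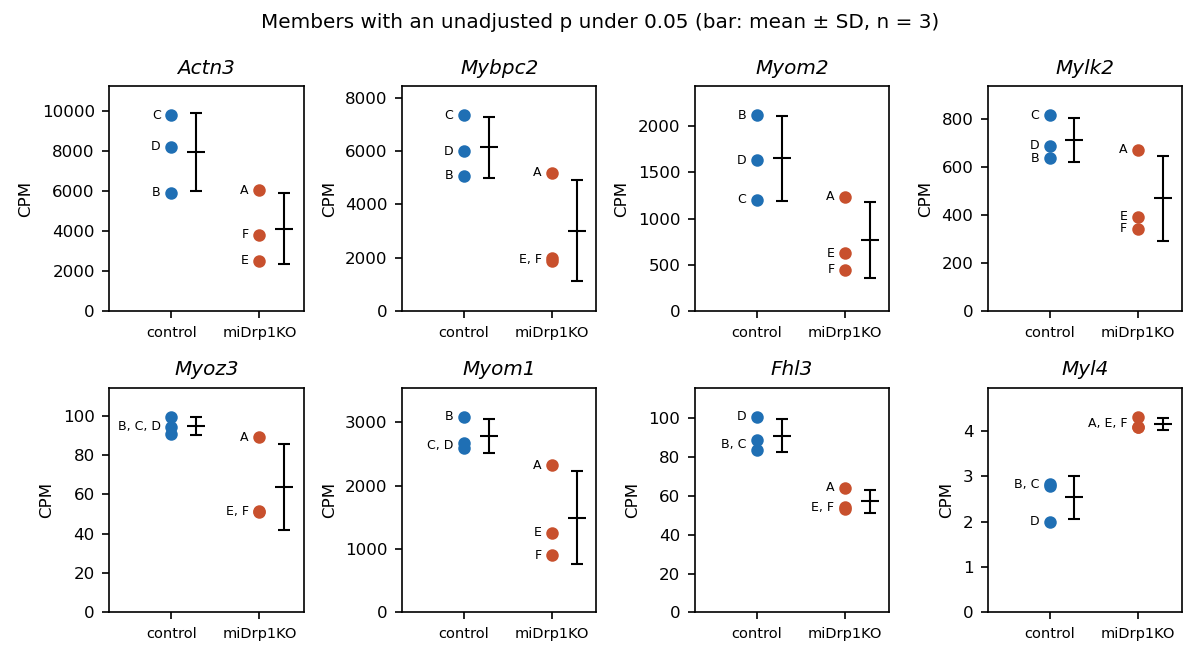
CPM of the 8 genes with an edgeR unadjusted p under 0.05, 1 panel per gene, 1 point per library with its letter, and the mean with its SD as a bar (n = 3 a group). In each of the 7 lower genes replicate A is the highest miDrp1KO library, and in *Fhl3*, *Myom1*, *Myoz3* and *Myl4* no miDrp1KO point overlaps a control point.

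LIM domain proteins of muscle bind actin, actinin and transcription factors. *Fhl3*, a four-and-a-half LIM domain protein, had an edgeR unadjusted p under 0.05 and was at 84.0, 88.7 and 101 CPM in controls and 64.2, 53.4 and 54.6 CPM in miDrp1KO. Every miDrp1KO library, A included, was clearly below the controls, with a log2 fold change of -0.67 (SE 0.16, edgeR unadjusted p = 0.00183, adjusted p = 0.362), and DESeq2 called it at -0.69 with an adjusted p of 0.0338. *Fhl1*, more abundant in slow fibers, ran from 136 CPM in control C to 827 CPM in E, and its 805 CPM in control B was close to E. *Fhl2*, the cardiac relative, was under 2 CPM in every library. *Lmcd1*, a LIM repressor of GATA factors, ranged from 65.7 to 194 CPM within the controls alone, which held every miDrp1KO library.

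The muscle ankyrin repeat proteins link titin to the nucleus. *Ankrd2*, of slow fibers, was at 174, 5.90 and 27.3 CPM in controls and 32.4, 87.3 and 107 CPM in miDrp1KO, a 29.5-fold range that lay entirely within the controls. *Ankrd23* differed by 1.20-fold at most, the narrowest range of the 40, from 1917 to 2295 CPM. *Ankrd1*, the cardiac and stress-induced member, ran from 8.67 to 30.2 CPM, again within the controls. *Csrp3*, the muscle LIM protein of slow fibers and heart, was at 65.7, 5.03 and 15.3 CPM in controls and 13.8, 36.0 and 43.7 CPM in miDrp1KO, all within the control range. *Smpx*, a small muscle protein taken with the slow genes, was at 141, 177 and 168 CPM in controls and 183, 187 and 217 CPM in miDrp1KO. With all libraries it was the only slow gene whose groups did not overlap, with a log2 fold change of 0.27 (SE 0.18, edgeR adjusted p = 0.601).

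Ratios of 2 genes within a library do not depend on the scaling of libraries, and 10 pairs were compared, 9 of a slow over a fast gene and 1 of the shared *Actn2* over the fast *Actn3*. For troponin I, the log2 ratio *Tnni1*/*Tnni2* was -9.42, -14.60 and -11.98 in control B, C and D, against -13.43, -7.53 and -7.78 in miDrp1KO A, E and F. For the essential light chain, *Myl3*/*Myl1* was -5.84, -11.21 and -10.39 in controls and -8.29, -5.22 and -5.47 in miDrp1KO. For tropomyosin, *Tpm3*/*Tpm1* was -9.05, -10.54 and -10.11 in controls and -10.29, -7.32 and -7.96 in miDrp1KO. In every one of the 10 pairs the 3 highest ratios were those of control B and miDrp1KO E and F, and the lowest was that of control C. miDrp1KO minus control, the mean log2 ratio differed by 2.82 for *Myl3*/*Myl1* (exact permutation p = 0.2), and by 0.72 for *Mybpc1*/*Mybpc2* (exact permutation p = 0.6). With all libraries these were the largest and the smallest of the 10 differences. Between these were 2.44 for *Tnnc1*/*Tnnc2*, 2.42 for *Tnni1*/*Tnni2*, 1.87 for *Tnnt1*/*Tnnt3*, 1.51 for *Myl2*/*Mylpf*, 1.38 for *Tpm3*/*Tpm1*, 1.20 for *Myoz2*/*Myoz1*, 0.96 for *Actn2*/*Actn3* and 0.89 for *Myom3*/*Myom2*. The groups overlapped in all 10, the adjusted exact permutation p was 0.6 for each over the 10 pairs, and the pooled SD within groups ran from 1.23 to 2.98. With 1 library left out, all 10 differences moved by over 1.5 times. Without control C they fell below 0 for *Mybpc1*/*Mybpc2* (-0.18), *Actn2*/*Actn3* (-0.066) and *Myom3*/*Myom2* (-0.039).

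**Figure D5:**
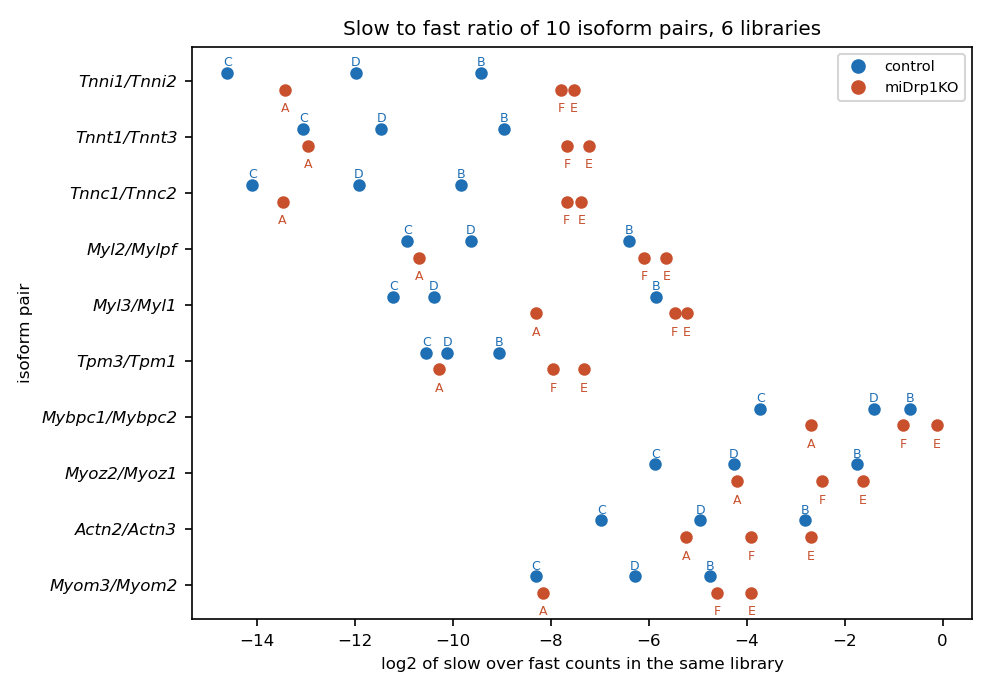
Log2 of slow over fast counts for 9 isoform pairs and of *Actn2* over *Actn3* counts, 1 point per library with its letter, controls in blue above and miDrp1KO in orange below in each line. Control B lies with miDrp1KO E and F at the right and miDrp1KO A with controls C and D at the left, as for *Tnnt1*/*Tnnt3*.

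Per exon length, the slow transcript was a small part of its fast counterpart in the troponins and light chains. *Tnnc1* reached 0.000844, 4.18e-05 and 0.000198 of *Tnnc2* in controls and 6.58e-05, 0.00464 and 0.00377 in miDrp1KO. *Myl3* reached 0.0177, 0.000424 and 0.000754 of *Myl1* in controls and 0.00323, 0.0272 and 0.0229 in miDrp1KO. *Mybpc1* came closest to its partner, at 0.506, 0.0606 and 0.301 of *Mybpc2* in controls and 0.124, 0.732 and 0.455 in miDrp1KO.

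The fast class rested more on E and F than on A. Over the 12 fast genes, the median level as a share of the control mean was 92.1% in A, 54.5% in E and 66.5% in F. E was below every control in all 12 (31.8% of all genes tested), F in 9 (33.1%) and A in 4 (26.1%), the latter being *Tnni2*, *Tnnc2*, *Tnnt3* and *Myoz3*. For the 13 slow genes the medians were 46.9% in A, 199.5% in E and 206.0% in F, and 7 slow genes in E (29.2% of all genes tested) and 7 in F (31.1%) were above every control. In A, 1 slow gene was above every control (24.9% of all genes tested) and 3 were below every control (26.1%). The median log2 fold change of the fast genes ran from -0.78 without A to -0.36 without E. That of the slow genes was 1.04 without A and 2.10 without control B, but 0.32 without control C or D, 0.37 without E and 0.36 without F. The fast class also depended on the scale: as a share of all counts other than ribosomal RNA, fast genes took 9.30, 13.3 and 10.9% in controls and 11.2, 7.77 and 10.5% in miDrp1KO, where only E was below every control. These shares have 95% Wilson intervals of at most 0.0186 percentage points on either side, which cover counting error only. The TMM factors were 0.840, 0.982 and 0.969 in B, C and D and 0.846, 1.42 and 1.04 in A, E and F.

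Other fiber type genes were read beside the isoforms. The slow heavy chain *Myh7* was at 95.7, 2.48 and 13.4 CPM in controls and 3.89, 174 and 89.6 CPM in miDrp1KO, with B, E and F highest as for the slow light chains. The fastest heavy chain *Myh4* was at 49885, 58256 and 62914 CPM in controls and 40363, 17190.1 and 12241 CPM in miDrp1KO, so all miDrp1KO libraries were lower, with a log2 fold change of -1.29 (SE 0.47, edgeR adjusted p = 0.392). *Myh1* and *Myh2*, of intermediate fast fibers, had overlapping groups and log2 fold changes of -0.81 (SE 0.66) and -0.74 (SE 0.39). Slow-fiber calcium and oxygen storage genes had fold changes above 0 in 5 of 5, none with an edgeR unadjusted p under 0.05, and myoglobin *Mb* was at 4693, 738 and 1922 CPM in controls and 1668, 4675 and 5322 CPM in miDrp1KO. Fast-fiber calcium genes had fold changes below 0 in 2 of 3, both with an edgeR unadjusted p under 0.05, as for 6.22% of all genes tested: *Casq1* at -0.72 and *Atp2a1* at -0.64 on the log2 scale. The remaining one, *Pvalb*, had overlapping groups and a log2 fold change of 0.028 (SE 0.32). It was at 5068, 9227 and 8208 CPM in controls and 8488.5, 5911 and 8545 CPM in miDrp1KO. Of 18 fiber type regulators, 11 had fold changes below 0 and 7 above 0, and 3 had an edgeR unadjusted p under 0.05, all lower, against 6.22% of all genes tested: *Hdac4* at -0.78, *Mef2d* at -0.62 and *Eya1* at -0.38. edgeR called no gene of these lists at an adjusted p under 0.05, and DESeq2 called *Myh4* and *Casq1*, both lower.

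Markers of other tissue moved with the same libraries in part. Summed blood markers, 4 of 5 measured, were at 272, 61.6 and 47.2 CPM in control B, C and D, against 73.1, 231 and 134 CPM in miDrp1KO A, E and F, again highest in B, E and F. Summed nerve markers, 5 of 5, were at 30.3, 14.2 and 16.1 CPM in controls and 19.1, 35.5 and 33.3 CPM in miDrp1KO, with the same 3 libraries highest, and all 5 had fold changes above 0. Summed adipocyte markers, 5 of 5, were at 406, 642 and 518 CPM in controls and 303, 275 and 384 CPM in miDrp1KO, and all 5 had fold changes below 0. None of the tested markers in these lists was at 0 in a library. Of 6 cardiac markers, *Nppa*, *Nppb*, *Gata4* and *Nkx2-5* did not pass the filter on low counts, and *Ryr2* and *Tnni3* stayed under 4 CPM. The part of these tissues, or of ribosomal RNA, in the isoform values was not tested.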

How the data were processed

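Total RNA of quadriceps muscle was depleted of ribosomal RNA and sequenced from stranded libraries. The authors checked reads with FastQC, aligned them to GRCm38 and counted them with Rsubread, and deposited raw counts per gene for each library, listed by Entrez identifier and not normalized. Whether counting used strand is not given in the sources used here. Of 27179 genes, 874 have no symbol.

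Counts were tested in R 4.3.3 with the quasi-likelihood test of edgeR 4.0.16 (TMM, filterByExpr, robust fit, Benjamini-Hochberg adjustment over 16483 genes, threshold 0.05), with genotype as the only term. Log2 fold changes are miDrp1KO over control. SE is the fold change divided by the square root of the test statistic. The script was tested on simulated counts. The biological coefficient of variation was 0.252. Pair ratios used counts plus 0.5 and two-sided exact permutation tests over the 6 libraries, adjusted over 10 pairs. Levels per kb used the union of GENCODE exons.

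The genes and lists were chosen with earlier results of these data known. Values in every library are given for members of an isoform pair, with an unadjusted p under 0.05, with groups that do not overlap, or with the highest or lowest fold change, and the rest by range. From the other lists, *Dnm1l*, adult heavy chains and called genes were to be named. Other list genes were picked by their values. The lists cover heavy chains, slow and fast calcium handling, fiber type regulators, cardiac and smooth muscle, satellite cells, denervation, endothelium, fibroblasts, macrophages, adipocytes, peripheral nerve and blood. Alternatives were DESeq2 1.42.0, limma 3.58.1 voom, other scalings and filters, ribosomal RNA genes left out, and each library left out. An item of the other lists is not reported here by name. No sample was left out or pooled.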

Additional observations from a re-analysis of the deposited data

How the results depend on the processing

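Of 284 fold changes of the 40 genes and *Dnm1l* under settings that keep all libraries, 272 kept their direction and their side of the threshold. DESeq2 called 3 of the 40 genes, and 4 genes of the other lists. At an unadjusted p under 0.05 it had 12 of the 40, edgeR 8 and limma voom 9. Shares over all genes tested at this cut were taken for edgeR only, at 6.22% lower and 4.68% higher. The counts from DESeq2 and limma voom therefore have no background here, and nothing is read from them about the 40 genes. DESeq2 gave *Dnm1l* a log2 fold change of -0.93 with an adjusted p of 0.00302, while edgeR gave an adjusted p of 0.362. *Mylpf* had a log2 fold change of 0.059 with upper quartile scaling, 0.012 with at least 10 counts in every library and 0.0065 without ribosomal RNA genes and *Lars2*. *Ankrd23* had 0.064, 0.017 and 0.015 under the same settings, *Lmcd1* 0.021 with upper quartile scaling, and *Actc1* -0.24 with limma voom. Upper quartile scaling moved the median of all genes tested from 0.017 to 0.11, with the slow median at 0.70 and the fast one at -0.46. The cause of these shifts was not tested.

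Leaving out 1 library turned the direction of 16 genes, none of them called. Their log2 fold changes ran from -1.10 to 0.54 for *Actc1*, from -1.07 to 0.65 for *Actn2*, from -0.50 to 0.62 for *Ankrd1*, from -0.43 to 2.18 for *Ankrd2*, from -0.092 to 0.067 for *Ankrd23*, from -0.39 to 1.60 for *Csrp3*, from -0.015 to 1.25 for *Fhl1*, from -0.025 to 1.14 for *Fhl2*, from -0.40 to 0.44 for *Lmcd1*, from -0.79 to 0.13 for *Mybph*, from -0.42 to 0.25 for *Myl1*, from -0.42 to 0.061 for *Myl6b*, from -0.14 to 0.11 for *Mylpf*, from -1.61 to 0.78 for *Myom3*, from -0.35 to 0.048 for *Myoz1* and from -0.063 to 0.58 for *Tnnt2*. Another 16 genes kept their direction but moved by over 1.5 times. Beside those given with their values, these ran from -0.69 to -0.35 for *Acta1*, from -1.65 to -0.78 for *Mybpc2*, from 0.93 to 3.46 for *Myl2*, from -0.93 to -0.40 for *Mylk2*, from 0.11 to 2.10 for *Myoz2*, from -0.86 to -0.41 for *Myoz3*, from -0.46 to -0.16 for *Tnni2*, from -0.80 to -0.35 for *Tnnt3*, from -0.77 to -0.30 for *Tpm1* and from -0.60 to -0.13 for *Tpm2*. Genes lower without overlap numbered 6, against 7, under upper quartile scaling, without a filter, with at least 10 counts in every library and without ribosomal RNA genes. With 1 library left out they numbered 7 to 14 and higher ones 2 to 9. The most were seen without miDrp1KO A, with 14 lower (17.5% of the genes then tested) and 9 higher (20.2%), followed by 12 lower (13.3%) and 5 higher (15.3%) without control B. Pair differences moved by over 1.5 times in all 10 pairs. Of these, 3 crossed 0 and ran from -0.066 to 2.01 for *Actn2*/*Actn3*, from -0.18 to 1.46 for *Mybpc1*/*Mybpc2* and from -0.039 to 2.19 for *Myom3*/*Myom2*. The others ran from 1.12 to 4.34 for *Tnni1*/*Tnni2*, from 0.84 to 3.71 for *Tnnt1*/*Tnnt3*, from 1.37 to 4.42 for *Tnnc1*/*Tnnc2*, from 0.55 to 3.12 for *Myl2*/*Mylpf*, from 1.79 to 4.48 for *Myl3*/*Myl1*, from 0.78 to 2.26 for *Tpm3*/*Tpm1* and from 0.24 to 2.31 for *Myoz2*/*Myoz1*. The highest came without miDrp1KO A or control B, and without A *Tnnc1*/*Tnnc2* (4.42) and *Tnni1*/*Tnni2* (4.34) exceeded *Myl3*/*Myl1* (3.80). Genes of the other lists called ran from 0 to 2, the 2 being *Myh3* and *Myh8* without A. No paired analysis was possible because control and miDrp1KO replicates carry different letters. With 3 mice a group, the slow genes with a range over 10-fold had standard errors from 1.07 for *Csrp3* to 1.73 for *Tnni1*. A p over the threshold does not show that groups are alike.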

Other observations

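Values of other marker lists are given for the same libraries. Of 8 denervation genes tested, 5 had fold changes above 0. *Runx1* was higher in every miDrp1KO library, at 4.07, 4.01 and 5.40 CPM in controls and 6.17, 9.09 and 7.63 CPM in miDrp1KO. The acetylcholine receptor subunit gene *Chrna1* was at 11.9, 8.75 and 10.2 CPM in controls and 6.85, 8.21 and 10.1 CPM in miDrp1KO, with overlapping groups. Of the genes of satellite cells and new fibers, 5 of 5 tested had fold changes above 0, and the fusion gene *Mymk* stayed under 1 CPM in every library. Of the heavy chains of immature muscle, *Myh3* was at 273, 351 and 284 CPM in controls and 279.6, 95.5 and 79.6 CPM in miDrp1KO. *Myh8* was at 1948, 2206 and 2239 CPM in controls and 1576, 622 and 411 CPM in miDrp1KO. The log2 fold change of *Myh8*, -1.29 (SE 0.45), was close to that of the adult *Myh4*, -1.29 (SE 0.47). Whether reads were shared among the heavy chain genes was not tested.

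Fibroblast markers had fold changes above 0 in 5 of 5, macrophage markers in 3 of 5, smooth muscle markers in 1 of 6, endothelial markers in 0 of 5 and cardiac markers in 2 of 2 tested. Summed endothelial markers were at 269, 135 and 201 CPM in controls and 148, 229 and 139 CPM in miDrp1KO. Summed fibroblast markers were at 1178, 1655 and 1354 CPM in controls and 1302, 2230.1 and 1717 CPM in miDrp1KO. edgeR called none of these genes at an adjusted p under 0.05, and *Runx1*, *Mymk* and *Ryr2* were among those with an edgeR unadjusted p under 0.05. DESeq2 called the adipocyte genes *Adipoq* and *Cfd*, both lower. The genes named here were picked by their values.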
